A study of Danio rerio with 6 samples.

Results

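The genes described here are 10 transcripts of the vascular endothelium and of its response to blood flow: klf2a, klf2b, kdrl, flt1, flt4, tie1, tek, cdh5, pecam1 and fli1a. They were chosen by name, with results of the comparison of PCB-11 and DMSO pools already known. For these genes that comparison is therefore given as a description, without a test. Of the 10 symbols, 9 have a row among the 14791 genes of the count tables, and all 9 were among the 12960 genes that passed the filter on low counts; tie1 has no row and was not analysed here. The samples were 6 pools of whole AB-strain zebrafish harvested at 96 h post fertilization (hpf), each made from 18 to 20 animals. From 24 hpf the dechorionated animals had been kept, 5 to a glass vial, in DMSO vehicle at 0.05% v/v. The 3 DMSO pools received the vehicle alone, and the 3 PCB-11 pools received 4500 µg/L of PCB-11 (3,3'-dichlorobiphenyl) in it. Both groups thus share the strain, the vehicle and the loss of the chorion. Whether pools stem from different clutches is not stated in the labels, so part of the spread between them may be technical. Below, values of the pools of a group follow their replicate numbers 1, 2 and 3.

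Endothelial cells line all blood and lymph vessels and form under the control of vascular endothelial growth factor (VEGF), which they sense through receptor tyrosine kinases. Angiopoietins act on a second family of endothelial kinases, the Tie receptors, which steady the vessel wall. Once blood circulates, the drag of flow on the endothelium induces KLF2, a zinc-finger transcription factor of the Krüppel-like family. Zebrafish carry a pair of KLF2 genes, klf2a and klf2b, and klf2a is widely used in the larva as a readout of flow in heart valves and vessels.

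The pools held 15705712 to 20479751 counts in genes, and levels are given in CPM, counts scaled to a common library size by TMM. PCB-11 replicate 2 had the smallest total and the largest share of reads outside annotated genes, 39.1% against 31.4% to 35.0% in the other pools. Endothelial transcripts were present in every pool: the 7 genes other than the KLF2 pair summed to 144.4 to 148.6 CPM in the DMSO pools and to 126.8 to 148.6 CPM in the PCB-11 pools. In such bulk samples, fewer endothelial cells and less RNA per cell cannot be told apart. Transcript lengths were not used here, so levels are compared between pools for each gene and not between genes.

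The flow-responsive factor klf2a differed about as much between pools of the same group as across the whole series. Its level was 57.4, 179.7 and 191.5 CPM in the DMSO pools, and 74.8, 58.9 and 168.6 CPM in the PCB-11 pools. High pools were DMSO replicates 2 and 3 with PCB-11 replicate 3, low pools were DMSO replicate 1 with PCB-11 replicates 1 and 2, and no pool lay between 74.8 and 168.6 CPM. The groups overlapped fully in range, since the lowest and the highest pool were both DMSO pools. These levels rest on 959 to 3759 reads per pool, for which counting error alone gives a coefficient of variation (CV) of about 2.08%, against 52% among the DMSO pools and 58.8% among the PCB-11 pools.

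The mean level of klf2a was 142.9 ± 74.3 CPM over the DMSO pools and 100.8 ± 59.3 CPM over the PCB-11 pools (SD, n = 3 each). The log2 fold change of PCB-11 over DMSO was -0.50 ± 0.48 (SE). That difference followed the pools that entered it. Leaving out PCB-11 replicate 3 gave -1.09 and leaving out DMSO replicate 1 gave -0.88. The other 4 pools, left out in turn, gave -0.23 (PCB-11 replicate 2), -0.24 (DMSO replicate 3), -0.30 (DMSO replicate 2) and -0.33 (PCB-11 replicate 1).

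The spread of klf2a within groups stood out from other genes of its level. The SD of its log2 CPM around the group means was 0.89, larger than in 99.6% of the 12960 tested genes, whose median was 0.17. Among the 1186 genes within 0.5 of its mean log2 level, itself included, none had a larger SD and the median was 0.13. This measure uses differences inside each group and not the comparison of the groups. However, klf2a was chosen with earlier results of these data known, so its rank is a description too.

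**Figure D1:**
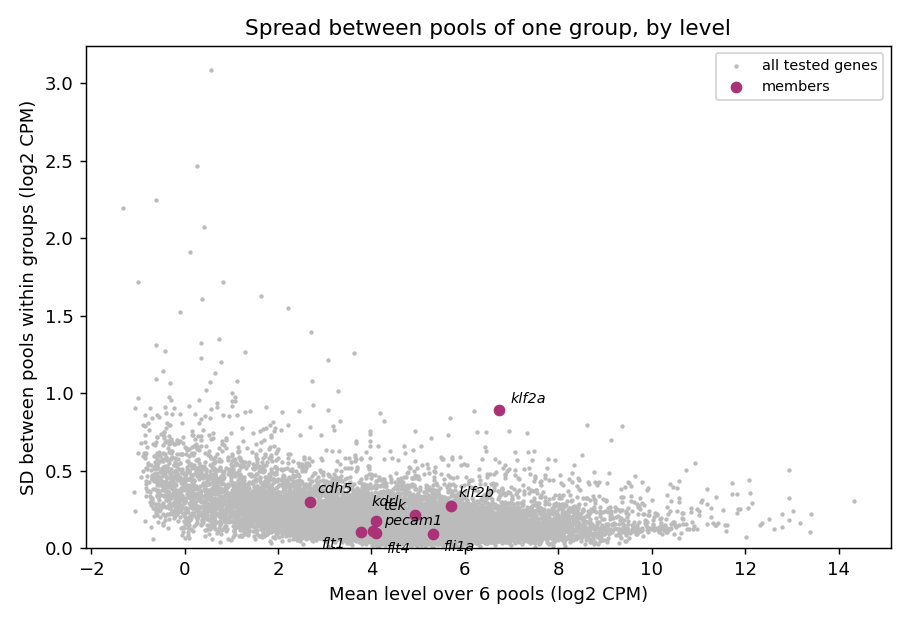
SD between pools of the same group (vertical axis, log2 CPM) against mean level over the 6 pools (horizontal axis, log2 CPM) for every tested gene in grey and the 9 members in purple. The point of klf2a lies at an SD of 0.89, above all genes of like level, while the other 8 members lie at 0.09 to 0.30 within the grey cloud.

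The second KLF2 gene, klf2b, did not share this pattern. It stood at 63.7, 58.2 and 43.4 CPM in the DMSO pools and at 60.4, 44.3 and 44.9 CPM in the PCB-11 pools. Its lowest pool, DMSO replicate 3, was the pool with the most klf2a. The DMSO pools averaged 55.1 ± 10.5 CPM and the PCB-11 pools 49.9 ± 9.09 CPM (SD, n = 3 each), with a log2 fold change of -0.14 ± 0.17 (SE) and overlapping groups. Leaving out single pools gave between -0.02 (DMSO replicate 1) and -0.30 (PCB-11 replicate 1). The ratio of klf2a to klf2b counts was 0.90, 3.09 and 4.42 in the DMSO pools and 1.24, 1.33 and 3.75 in the PCB-11 pools.

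**Figure D2:**
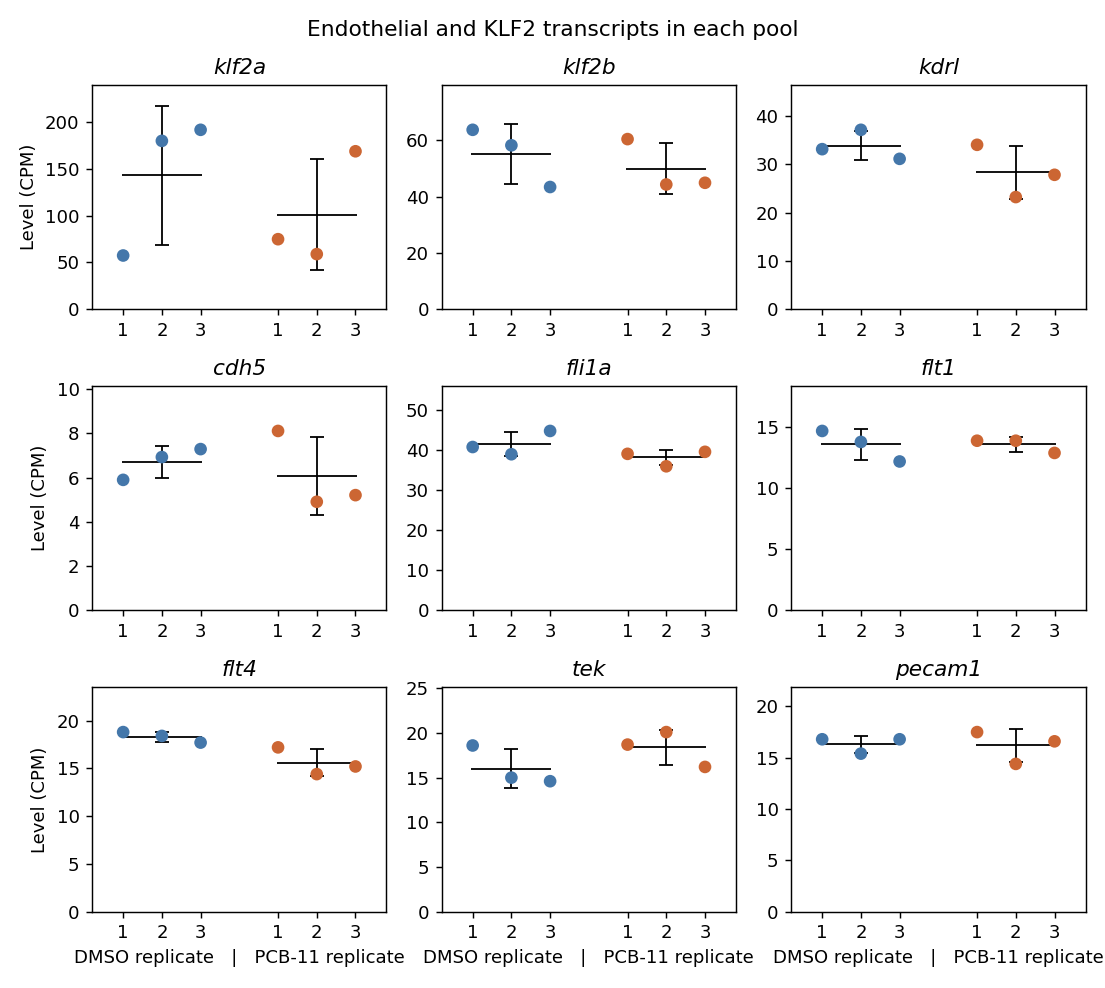
Level in CPM (vertical axis, from 0) of each of the 9 genes in the 3 DMSO pools (blue) and 3 PCB-11 pools (orange), with group means (horizontal lines) and SD (error bars). Pools of klf2a lie either at 57.4 to 74.8 or at 168.6 to 191.5 CPM in both groups, and only in flt4 do the groups not overlap.

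Of the VEGF receptors, kdrl, which carries the main angiogenic signal in zebrafish, had 33.1, 37.1 and 31.1 CPM in the DMSO pools and 34, 23.2 and 27.8 CPM in the PCB-11 pools. The groups overlapped through PCB-11 replicate 1, and PCB-11 replicate 2 was the lowest pool. Its means were 33.8 ± 3.04 and 28.3 ± 5.46 CPM and its log2 fold change -0.25 ± 0.15, which moved to -0.13 on leaving out PCB-11 replicate 2 and to -0.41 on leaving out PCB-11 replicate 1.

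The receptor gene flt4, which serves veins and lymphatic vessels and binds VEGF-C, was the only member whose groups did not overlap. Its level was 18.8, 18.4 and 17.7 CPM in the DMSO pools, and 17.2, 14.4 and 15.2 CPM in the PCB-11 pools. All PCB-11 pools were below all DMSO pools, the closest pair being 17.7 and 17.2 CPM, and the log2 fold change was -0.23 ± 0.11. Groups did not overlap in 1 of the 9 members and in 19.4% of all tested genes. The decoy receptor gene flt1, which binds VEGF-A and limits its action, had 14.7, 13.8 and 12.2 CPM in the DMSO pools and 13.9, 13.9 and 12.9 CPM in the PCB-11 pools. Its means were 13.6 ± 1.27 and 13.6 ± 0.612 CPM and its log2 fold change 0.00 ± 0.12.

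The Tie receptor gene tek encodes the angiopoietin receptor Tie2. It was at 18.6, 15.0 and 14.6 CPM in the DMSO pools and at 18.7, 20.1 and 16.2 CPM in the PCB-11 pools. Its 3 lowest pools were the pools in which klf2a was high, across both groups. The means were 16.0 ± 2.19 and 18.4 ± 1.99 CPM with a log2 fold change of 0.20 ± 0.14 (SE), and the groups overlapped. Leaving out DMSO replicate 1 gave 0.31, and leaving out either DMSO replicate 3 or PCB-11 replicate 2 gave 0.13.

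Of the junction genes, mainly cdh5 varied more in the PCB-11 group than in the DMSO group. By CV, kdrl and flt4 did so too, while fli1a, flt1 and tek varied less in the PCB-11 group. For cdh5, the cadherin that seals endothelial contacts, levels were 5.90, 6.93 and 7.29 CPM in the DMSO pools and 8.11, 4.91 and 5.21 CPM in the PCB-11 pools. The highest and the 2 lowest pools were all PCB-11 pools. With 80 to 157 reads per pool, counting error alone gives a CV of about 9.16%, and the observed CV was 10.7% in DMSO and 29% in PCB-11. The log2 fold change was -0.14 ± 0.21 and depended on single pools: leaving out PCB-11 replicate 1 gave -0.41, and leaving out PCB-11 replicate 2 gave -0.01. The adhesion molecule gene pecam1 was even, at 16.8, 15.4 and 16.8 CPM in the DMSO pools and 17.5, 14.4 and 16.6 CPM in the PCB-11 pools, with a log2 fold change of -0.01 ± 0.12.

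The ETS transcription factor gene fli1a marks endothelium and in zebrafish also neural crest of the pharyngeal arches. Of the 9 genes it had the smallest SD of log2 CPM within groups, 0.09. It stood at 40.7, 38.9 and 44.7 CPM in the DMSO pools and 39.0, 35.9 and 39.5 CPM in the PCB-11 pools. The groups overlapped, and the log2 fold change was -0.12 ± 0.10, or -0.06 without DMSO replicate 3. The neural crest and cartilage list (21 tested genes) summed to 7970.3 to 8666.8 CPM in the DMSO pools. In the PCB-11 pools its sum was 6159.3 to 8342.5 CPM. The crest marker gene crestin was at 0 in every pool of both groups, and whether its row could take reads was not tested. The part of neural crest in the fli1a values was not tested.

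Over the 9 members, 7 had a log2 fold change below 0 and 2, flt1 and tek, at or above it, with a median of -0.14 beside 0.00 over all tested genes; 49.8% of all tested genes were below 0. That median moved to -0.30 when PCB-11 replicate 1 was left out, and to between -0.07 and -0.06 when PCB-11 replicate 2, PCB-11 replicate 3 or DMSO replicate 3 was. With edgeR's quasi-likelihood test, adjusted over all tested genes, 0 of the 9 were called, where 0.0463% of all genes were. At an unadjusted p under 0.05 the count was 0 of 9, against 11.8% of all genes. DESeq2 called 0 of the 9 (0.849% of all genes) and limma-voom 0 (0% of all genes). Since the members were chosen with this comparison in view, these counts describe them and support nothing further.

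PCB-11 replicate 2 was the lowest of the 6 pools for 5 of the 7 endothelial genes (kdrl, cdh5, fli1a, flt4 and pecam1) and the highest for tek. The median difference of the 7 genes from the DMSO mean was -0.21 in that pool on the log2 scale, and between -0.07 and 0.05 in the other 5. The same pool was lowest for most of the other cell types read, vascular or not. Its median was -0.49 in mural cells (10 tested genes, against -0.19 to 0.09 in the other pools), -0.46 in heart muscle (17 tested genes, against -0.01 to 0.11) and -0.36 in erythrocytes (17 tested genes, against -0.06 to 0.06). It was also the lowest pool for neutrophils (-0.43), thrombocytes (-0.24), neural crest and cartilage (-0.20) and, next to DMSO replicate 1 at -0.10, epidermis (-0.11), while macrophage markers were lowest in PCB-11 replicate 1. Summed heart muscle transcripts were 302.2 CPM there, 422.0 and 520.3 in PCB-11 replicates 1 and 3, and 491.0 to 503.9 in the DMSO pools. The heart list gene gata6 was at 0 in every pool of both groups, so it marks no difference between pools. The part of these tissues and of read quality in the endothelial values was not tested.

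Within groups, the 7 endothelial genes moved only partly together. Over the 21 pairs the Pearson r of deviations from the group mean over 6 pools had a median of 0.23 and ranged from -0.715 to 0.91, with 14 pairs above 0. The receptors kdrl and flt4 had r = 0.91, kdrl and cdh5 0.77, and flt4 and cdh5 0.76, while flt1 and tek (0.82) departed from these, with fli1a and flt1 at -0.715. The KLF2 pair went with different genes. For klf2b r was 0.83 with flt4, 0.82 with flt1 and 0.73 with kdrl. For klf2a it was between -0.20 and 0.43 with kdrl, cdh5, flt4, pecam1 and fli1a, -0.81 with flt1 and -0.996 with tek. Points within a group share its mean, so that few are independent, and all genes of a pool share its library. Counting error alone gives a CV of about 6.32% for flt1, 5.64% for flt4 and 5.76% for pecam1. The observed CVs in DMSO and PCB-11 were 9.34% and 4.52% for flt1, and 2.93% and 9.29% for flt4. For pecam1 they were 5.1% and 9.76%. The r values of these genes were therefore not separated from counting error.

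**Figure D3:**
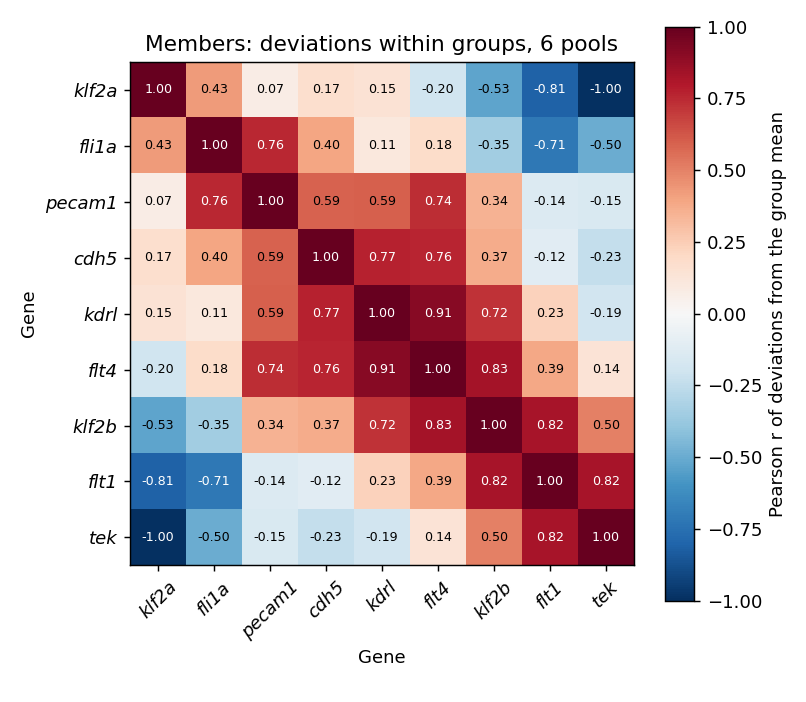
Pearson r between pairs of members of their deviations from the group mean over 6 pools (colour scale from -1 to 1, values printed, log2 CPM). The block kdrl, flt4, cdh5 and pecam1 has r of 0.59 to 0.91, and the row of klf2a is negative with klf2b, flt1, flt4 and tek.

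No endothelial gene had a pattern over the 6 pools close to that of klf2a, although tek ran against it: r was highest for fli1a (0.51) and lowest for tek (-0.95). Among 11883 genes with a mean log2 CPM of 1 or more, the highest Pearson r with klf2a over the 6 pools was that of mfsd6b (0.998), then the chemosensory ion channel gene trpa1b (0.997). For trpa1b the levels were 2.69, 7.50 and 7.44 CPM in the DMSO pools and 3.25, 2.52 and 7.16 CPM in the PCB-11 pools, high in the same 3 pools. The range of mfsd6b was narrower, from 7.85 to 10.7 CPM. In all, 58 genes had an r of at least 0.95 and 43 of at most -0.95. Because klf2a has no pool between its low and its high levels, such an r mostly states that a gene splits the pools the same way.

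The genes nearest klf2b were zgc:154045 (r = 0.988), plekhb2 (0.983) and the chromatin remodeller gene smarca2 (0.980), all with small ranges: plekhb2 lay between 23.1 and 27.6 CPM. Nearest to the mean of the receptors and cadherin (kdrl, cdh5, flt1, flt4 and tek) were st6galnac3 (0.995), fam134a (0.992) and cyp46a1.4 (0.990). For klf2b itself r with that mean was 0.87, above all but 2.46% of genes, and for klf2a it was -0.15, with 57.1% of genes higher.

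Macrophage markers were high in the same pools as klf2a. Over 18 tested genes of 22 matched, the median log2 departure from the DMSO mean was -0.84, 0.62 and 0.34 in the DMSO pools and -1.22, -1.03 and 0.69 in the PCB-11 pools. Their sum ranged from 97.0 to 177.7 CPM in DMSO and from 63.0 to 175.0 in PCB-11, and none of the 22 was at 0 in every pool. Neutrophil markers (7 tested) were also highest in the pools with high klf2a, over a smaller range. Their medians were -0.13, 0.20 and 0.02 in the DMSO pools and -0.10, -0.43 and 0.18 in the PCB-11 pools. The r of the median with klf2a over the pools was 0.94 for macrophage and 0.84 for neutrophil markers. Thrombocyte markers (5 tested) summed to only 8.29 to 11.8 CPM. In the 7 endothelial genes, medians were 0.04, 0.01 and -0.05 in the DMSO pools and 0.05, -0.21 and -0.07 in the PCB-11 pools, and thus did not separate these pools. The part of macrophages in the klf2a values was not tested.

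**Figure D4:**
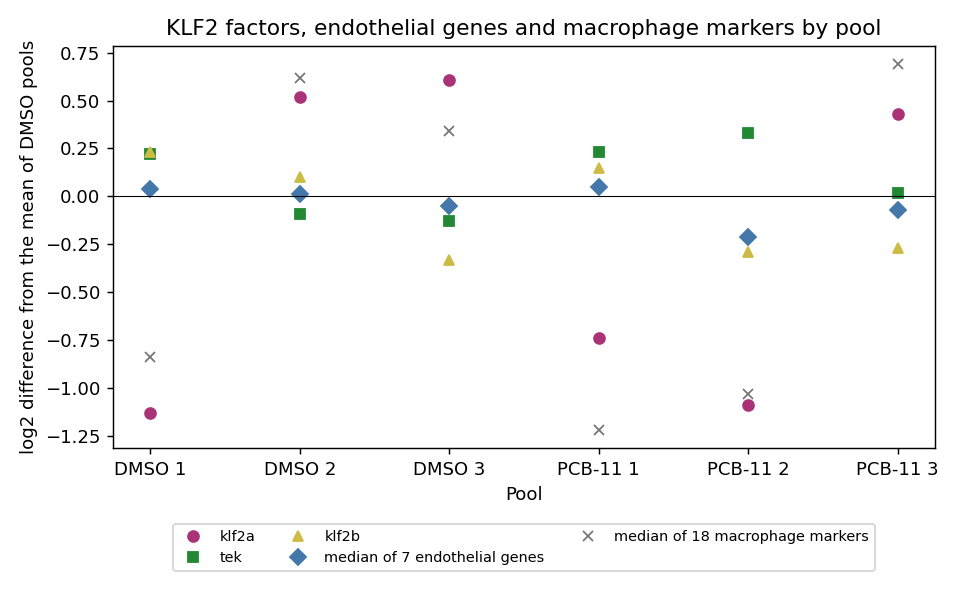
log2 difference from the mean of the DMSO pools (vertical axis) in each of the 6 pools (horizontal axis) for klf2a, klf2b, tek, the median of the 7 endothelial genes and the median of 18 macrophage markers. klf2a and the macrophage markers are above 0 in DMSO replicates 2 and 3 and in PCB-11 replicate 3, and below -0.7 in the other pools, while the endothelial median stays between -0.21 and 0.05.

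The wider vascular pathway was read from 8 lists with 162 tested genes besides the members. With edgeR, 0 of the 162 were called higher and 0 lower, and DESeq2 and limma-voom also called 0. At an unadjusted p under 0.05 edgeR had 4 higher and 17 lower, 13% of the 162 beside 11.8% of all genes. The median log2 fold change of the 162 was -0.08. Where groups are said below not to overlap, the genes had been picked by small p, and 19.4% of all tested genes had such groups. Without PCB-11 replicate 3, edgeR called 1 of the 162, the blood and endothelial progenitor factor tal1 (log2 fold change 0.52, adjusted p = 0.0457). In that setting 184 of all genes were called, against 6 in the main setting, so 1 call among the 162 does not set the lists apart.

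In the flow list (44 tested, median -0.15) 0 genes passed, and 1 was higher and 6 lower at an unadjusted p under 0.05. The genes with the smallest p were mef2cb, klf4 and mef2ca. In mammals MEF2 proteins drive KLF2, and KLF4 is induced by flow beside it. The list was built from genes with such links, so the links of its first genes are no result. Levels of mef2cb were 33.0, 35.5 and 36.5 CPM in the DMSO pools and 26.6, 24.2 and 28.3 CPM in the PCB-11 pools, without overlap (log2 fold change -0.41 ± 0.10, adjusted p = 0.308 in edgeR). Levels of mef2ca were 37.2, 46.8 and 32.0 CPM against 26.7, 17.8 and 27.9 CPM, also without overlap (-0.68 ± 0.19, adjusted p = 0.317 in edgeR). The sparse klf4 had 1.49, 2.40 and 1.99 CPM against 1.03, 0.983 and 0.79 CPM (-1.07 ± 0.28, adjusted p = 0.308 in edgeR). None of these 3 genes followed the split of klf2a, with r of 0.60, 0.48 and 0.41 over the 6 pools. Of the other MEF2 genes in the list, mef2aa (-0.18 ± 0.13) and mef2d (-0.15 ± 0.18), named after their values were seen, were lower by less. MEF2 genes are also active in heart and skeletal muscle. The part of muscle in the MEF2 values was not tested.

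Further genes of the flow list are named here after their values were seen, and some of them lay close to 0 beside the list's median of -0.15. Log2 fold changes were 0.03 ± 0.11 for mapk7, the kinase ERK5 that acts on MEF2, 0.02 ± 0.13 for krit1 of the cerebral cavernous malformation complex, -0.07 ± 0.19 for the vasoconstrictor gene edn1 and -0.16 ± 0.16 for heg, the membrane partner of krit1. The partner gene ccm2 (-0.45 ± 0.18) and the flow-sensing channel gene pkd2 (-0.45 ± 0.23) were lower without passing. The other KLF genes (17 tested, median -0.22) had 3 lower at an unadjusted p under 0.05. These were klf4, klf15 (-0.57 ± 0.21) and the erythroid factor klf1 (-0.61 ± 0.27), with adjusted p of 0.308 to 0.418 in edgeR. Levels of klf15 were 39, 52.5 and 54.7 CPM in the DMSO pools and 34, 22.8 and 41.2 CPM in the PCB-11 pools. They were highest in the 3 pools with high klf2a (r = 0.80 over the pools), while r was 0.41 for klf4 and 0.22 for klf1. The list summed to 587.4 to 702.5 CPM in those pools and to 493.6 to 497.1 CPM in the others. Its median log2 departure from the DMSO mean did not split so, at -0.23 in PCB-11 replicate 3 and -0.27 to -0.18 in low klf2a pools.

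Among VEGF ligands and co-receptors (12 tested, median -0.13), 0 passed. The semaphorin gene sema3gb had 11.1, 11.9 and 8.31 CPM in DMSO and 7.54, 5.65 and 6.06 CPM in PCB-11, without overlap (log2 fold change -0.70 ± 0.18, adjusted p = 0.308 in edgeR). Next were plxnd1, a semaphorin receptor of endothelium (-0.48 ± 0.25), and kdr, the second VEGFR2-type receptor gene (-0.30 ± 0.17). The ligand vegfaa, picked after its values were seen, was the 1 gene of the 162 with an r of at least 0.95 with klf2a. This was 0.617% of the 162, beside 0.488% of the 11883 genes ranked against klf2a. The 162 were not cut at a mean log2 CPM of 1 as the 11883 were. With 1 such gene, the shares cannot show whether the lists were richer in them. For vegfaa the levels were 2.64, 3.44 and 3.26 CPM in the DMSO pools and 2.74, 2.52 and 3.27 CPM in the PCB-11 pools, highest in the 3 pools with high klf2a. These levels were below those of cdh5, for which counting error alone gave a CV of about 9.16%. The differences of vegfaa between pools were not separated from counting error. The other VEGF-A gene, vegfab, had an r of 0.09 with klf2a, and its log2 fold change was -0.05 ± 0.10.

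The angiopoietin and Tie list (5 tested, median -0.04) had 0 genes at an unadjusted p under 0.05. The Tie2 ligand gene angpt1 had 4.58, 3.75 and 4.03 CPM in DMSO and 4.44, 4.18 and 3.37 CPM in PCB-11 (-0.04 ± 0.18). It was lowest in the 3 pools with high klf2a, with an r of -0.78 over the 6 pools. Its level was below that of cdh5, for which counting error alone gave a CV of about 9.16%. Differences of this size between pools were not separated from counting error. The lipase inhibitor gene angptl4 (-0.16 ± 0.14) did not pass. Its levels were 136.9, 160.9 and 163.1 CPM in DMSO and 119.8, 127.4 and 165.8 CPM in PCB-11. They were highest in the 3 pools with high klf2a, with an r of 0.89 over the 6 pools.

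Endothelial transcription factors (21 tested, median 0.04) also gave 0 calls. The endocardial factor nfatc1 had 8.42, 9.17 and 10.4 CPM in DMSO and 7.23, 4.54 and 6.16 CPM in PCB-11 (log2 fold change -0.64 ± 0.18, adjusted p = 0.321 in edgeR). On the other side were lmo2 (0.33 ± 0.12), with 8.39 to 9.63 CPM in DMSO and 10.8 to 11.7 in PCB-11, and its partner tal1 (0.37 ± 0.15), both factors of early blood and vessel cells. For lmo2 the groups did not overlap, and for tal1 they did.

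Notch and arteriovenous genes (23 tested, median -0.07) had 3 lower at an unadjusted p under 0.05 and 0 calls. They were notch3 (-0.42 ± 0.13), a receptor of mural cells, with 65.5, 66.6 and 55.5 CPM in DMSO and 55.0, 42.9 and 42.1 in PCB-11, then the ligand gene jag1b (-0.31 ± 0.13) and notch1a (-0.38 ± 0.17). Junction and surface genes (35 tested, median -0.06) included rasip1, needed for vessel lumens, at 9.74, 9.90 and 9.68 CPM in DMSO and 8.11, 6.82 and 8.06 CPM in PCB-11 (-0.35 ± 0.13). Beside it stood the peptide receptor gene calcrla (-0.41 ± 0.17) and the E-selectin gene sele (0.43 ± 0.18). Adjusted p for these 6 genes was 0.324 to 0.418 in edgeR.

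Mural cells, the smooth muscle cells and pericytes around vessels, were read from 10 tested genes with a median of -0.23 and 0 calls. As the pools were whole animals, tissues other than vessel walls may add to these transcripts, and their part was not tested. The smooth muscle myosin gene myh11a had 116.3, 131.9 and 117.8 CPM in DMSO and 98.1, 69.7 and 101.7 CPM in PCB-11 (log2 fold change -0.44 ± 0.15, adjusted p = 0.354 in edgeR). The groups did not overlap for myh11a, nor for the potassium channel genes kcnj8 (-0.68 ± 0.23) and abcc9 (-0.20 ± 0.10). These were 3 of the 10 genes, beside 19.4% of all tested genes. Lists of further cell types had medians of -0.17 in heart muscle, -0.13 in erythrocytes, -0.07 in thrombocytes, -0.30 in macrophages, -0.12 in neutrophils, -0.01 in neural crest and cartilage and 0.12 in epidermis, each with 0 genes called in edgeR, DESeq2 or limma-voom. At an unadjusted p under 0.05 edgeR had 1 of 17, 6 of 17, 0 of 5, 1 of 18, 0 of 7, 0 of 21 and 3 of 25 tested genes in these lists, in that order. The share over all genes was 11.8%. The erythrocyte genes were 3 higher and 3 lower, those of epidermis higher, and those of heart muscle and macrophages lower.

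**Figure D5:**
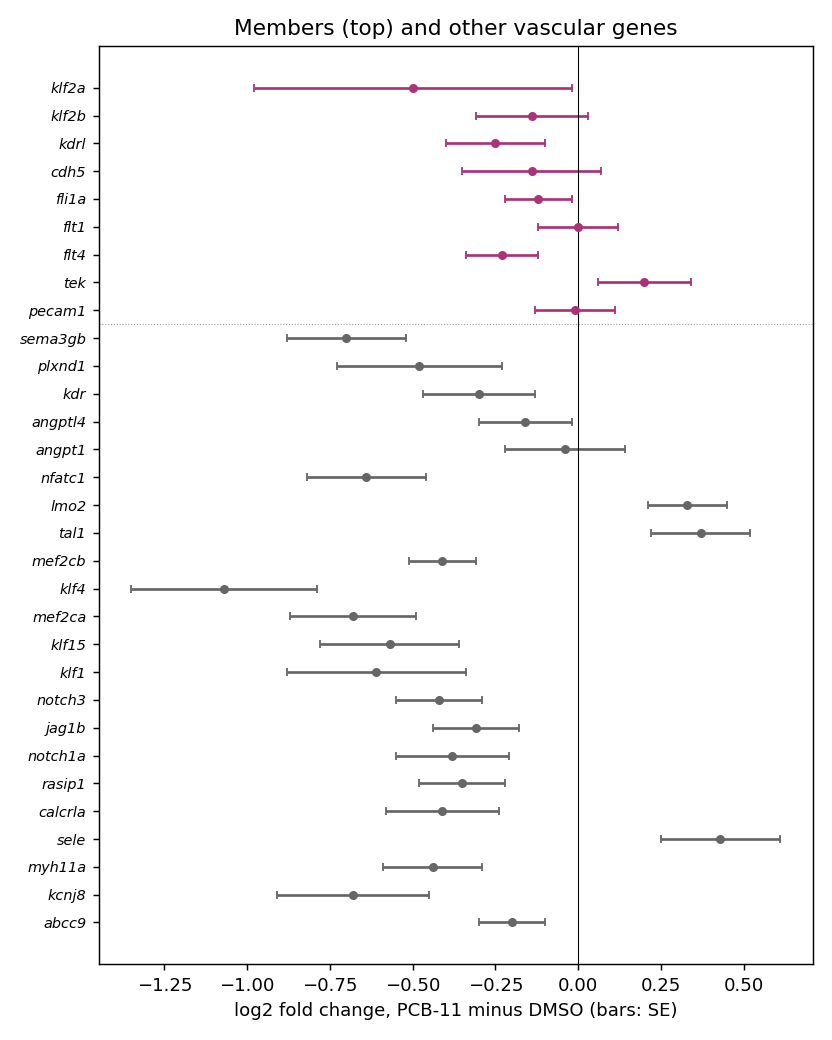
Log2 fold change of PCB-11 minus DMSO (horizontal axis) with SE bars for the 9 members (purple, top) and the genes named from the 8 vascular lists (grey). The bar of klf2a is the widest, at -0.50 ± 0.48, and none of the genes shown passed at an adjusted p of 0.05.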

How the data were processed

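Poly(A) RNA was sequenced from 3 DMSO and 3 PCB-11 pools of whole larvae. The values deposited by the authors are raw counts of reads for each gene symbol, with a table for every pool, as their whole numbers show. The submitters' processing notes name the build danRer7 and Cufflinks; the aligner, the counting program with its strand setting, and the annotation were not stated in the labels. The 2 rows that name no gene (reads outside genes, 31.4% to 39.1%, and ambiguous reads, 0.379% to 0.429%) were left out. edgeR 4.0.16 in R 4.3.3 was used on 12960 genes (default filter, TMM, robust quasi-likelihood F tests, group as the only term, Benjamini-Hochberg adjustment, threshold 0.05). SE were derived from F. Profiles used log2 CPM with a prior count of 2. The test was checked on simulated counts. DESeq2 1.42.0, limma 3.58.1 and further settings served as alternatives. Of 377 list entries, 298 matched, including 19 by synonyms that RefSeq lists for assembly GRCz12tu. Members and lists were chosen with earlier results of these data known. Named are all members, the 3 genes of smallest p in each vascular list, and the 3 genes most like klf2a, klf2b and the receptor mean; a few genes this rule picks are not reported here, and others are said to be picked later. Reads of overlapping genes or close paralogues, such as kdr and kdrl, may be exchanged. Pools of a group differed by more than counting error (mean chi-square per gene 6.8 to 72.0). Figures were drawn with matplotlib 3.10.9.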

Additional observations from a re-analysis of the deposited data

How the results depend on the processing

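In each of the 15 alternatives 0 of the 9 members were called. At an unadjusted p under 0.05 in edgeR, 3 of the 9 were lower without PCB-11 replicate 1. In that setting 1702 of all genes were under 0.05, against 1535 in the main setting. The other settings had 0 members under 0.05. As the members were chosen with this comparison in view, the 3 are a description only. The number of all genes called moved from 6 to 110 with DESeq2, 0 with limma-voom and 26 with the replicate block, and from 0 to 184 on leaving out single pools; the cause was not tested. Vascular genes of the lists went from 0 called to between 0 and 1 on leaving out single pools, the 1 without PCB-11 replicate 3. That was also the setting in which 184 of all genes were called. The median log2 fold change of the members, -0.14, was between -0.30 and -0.06 on leaving out single pools. All 135 recomputed member values moved by less than the SD within groups. Leaving out 1 of 3 pools can hardly move a value further than that, so this says little about stability. Values of klf2a ran from -1.09 to -0.23 and those of cdh5 from -0.41 to -0.01. The sign of flt1 and pecam1, both near 0, was not fixed. Scaling moved the median of all genes by less than 0.01. Deviations of same-numbered pools had r of 0.26, -0.15 and 0.37, and those of differently numbered pools had r from -0.40 to 0.23. So few values cannot decide whether the labels' numbers pair the pools. The 3 pools a group and the klf2a SD of 0.89 limit what could be detected for that gene.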
